A study of Sorghum bicolor with 8 samples.

Results

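Transcript levels of 5 circadian clock genes were compared in prop roots of Sorghum bicolor grown in elevated or ambient CO2. The members were chosen by identifier from a list that gives their names as LHY, TOC1, GI, PRR37 (the maturity gene Ma1) and ELF3, and all 5 were found among the 34129 genes of the deposited table. The names come with that list, because the table itself holds identifiers only. Prop roots leave the stem above the ground and brace the plant. Every plant was of cultivar BRS330 and was under water deficit: irrigation was 1.5 L per day up to 60 days after planting, and 0.45 L per day, a cut of 70%, for the 30 days that followed. The elevated CO2 group (4 libraries) grew at 800 µmol per mol and the ambient CO2 group (4 libraries) at 400 µmol per mol. No fully watered group was part of the comparison, so both groups share the drought treatment. Whether libraries came from separate plants is unknown, so the p-values measure spread between libraries that may be technical. The hour of harvest is unknown too, and it may have differed between the groups or among the libraries pooled in a group. For clock genes, a difference in hour between the groups cannot be told apart from CO2. The tissue label could not be checked against marker genes, since no identifier is paired with a gene name in the table.

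The plant circadian clock rests largely on transcription regulators that repress each other in turn through the day. In this way it keeps time over a day and night cycle. LHY is a MYB transcription factor of the morning that represses evening genes such as TOC1, and TOC1 in turn represses LHY, a loop worked out in Arabidopsis. GI and ELF3 also act in the evening part of the cycle, and PRR37 is a relative of TOC1 known in sorghum for delaying flowering in long days. Because levels of such transcripts swing over the day, a sample taken at a single time gives the level at that time only, and not the phase or the amplitude of the rhythm.

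Each gene has 1 value per group in FPKM, a fragment count corrected for transcript length and for the size of the library, which the authors pooled over the libraries of the group. Values of single libraries and the depth of each library were not analysed here, so group values stand without an SD and without a counting interval. A gene was called changed where the authors' deposited table lists a test and a q-value (p adjusted over all tested genes) under 0.05. Of the 5 clock genes 4 were tested, and 0 of these 4 passed, while 11.5% of all 16280 tested genes did. None of the 4 had an unadjusted p under 0.05, beside 20.6% of all tested genes. With only 4 genes tested, a count of 0 does not set the clock genes apart from these shares. At q under 0.1, which 14.6% of all tested genes passed, the count was 0 as well, and so necessarily at q under 0.01, which 7.12% passed. Among the 4 tested clock genes 3 were lower and 1 was higher in elevated CO2, differences that did not pass the test, and with both groups scaled to the same summed FPKM 2 were lower and 2 higher. The median log2 ratio (elevated over ambient CO2) of the 5 clock genes was -0.05, and over the 4 tested ones -0.16, beside -0.03 over all tested genes. That background differed by level. It was -0.20 over tested genes that reached 100 FPKM in either group, as LHY and GI did. For those with a higher value of 5 to 20 FPKM, as TOC1 and ELF3 had, it was 0.006. The median of the 5, which includes the untested PRR37 near 0 FPKM, has no settled sign: it was 0.13 with the groups scaled to the same summed FPKM, and 0.014 without LHY or without ELF3. A p that misses the threshold does not show that the levels were alike, and an interval for the differences cannot be computed from pooled values.

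**Figure D1:**
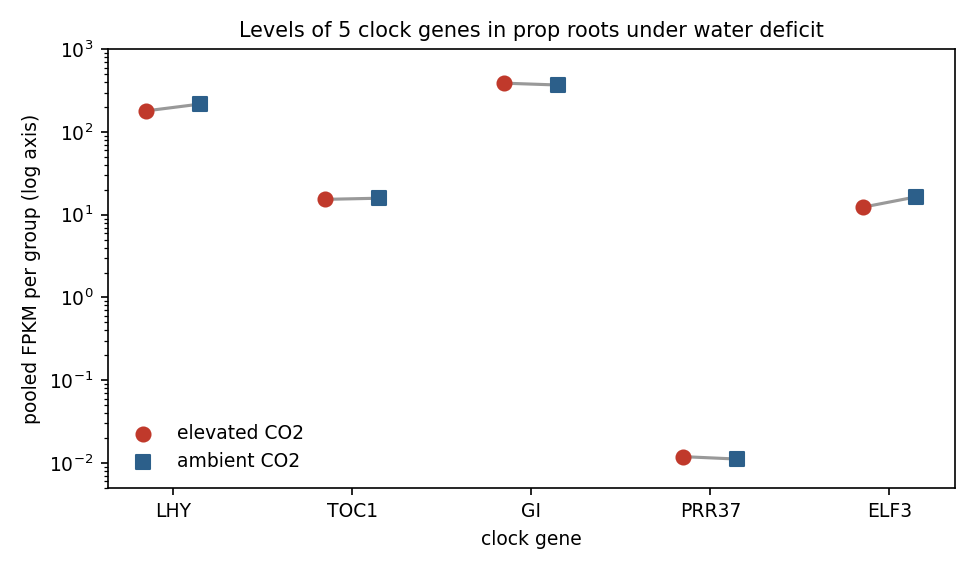
Pooled FPKM (log axis) of each clock gene, with elevated CO2 as red circles on the left and ambient CO2 as blue squares on the right of each pair; there are no error bars because each point is the authors' pooled value of 4 libraries. GI and LHY lie above 100 FPKM, TOC1 and ELF3 between 5 and 20 FPKM, and PRR37 near 0.01 FPKM in both groups.

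The levels of the clock genes spanned a wide range, and FPKM, being per length, allows them to be compared with each other. In elevated CO2 the order from high to low was GI, LHY, TOC1, ELF3 and PRR37. In ambient CO2 it was GI, LHY, ELF3, TOC1 and PRR37, so that TOC1 and ELF3 changed places. These neighbours in the order were close, with TOC1 at 1.25 times the FPKM of ELF3 in elevated CO2 and 0.963 times in ambient CO2, and without library values it cannot be said whether that differs beyond their spread. Summed FPKM of the 4 tested clock genes was 597 in elevated and 619 in ambient CO2. GI made up 65.2% of that sum in elevated CO2 and 59.7% in ambient CO2. LHY made up 30.2% of it in elevated CO2 and 35.1% in ambient CO2.

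LHY (Sobic.007G047400) is the morning gene of the set. Its deposited locus lies on chromosome 7, from 4745529 to 4757815, in the coordinates of the authors' table, and the genome build behind them is not named in the sources used here. In the authors' deposited table LHY is listed at 180 FPKM in elevated CO2 and 217 FPKM in ambient CO2. That places it at rank 482 of all 34129 genes in elevated CO2 and rank 485 in ambient CO2, among the 1.41% and 1.42% most abundant transcripts of the groups. The elevated level was 0.828 times the ambient one (log2 -0.27), and this lower value did not pass the authors' test (p = 0.397, q = 0.799 in the authors' deposited table). Differences of that size or larger were common: 46.0% of all tested genes, and 729 of the 1320 tested genes that reached 100 FPKM in either group, had an absolute log2 ratio at least as large. The table gives the LHY locus to another gene as well, Sobic.007G047450, which is unnamed here. This second gene is listed in the authors' deposited table at 0.0108 FPKM in elevated CO2 and at 0 in ambient CO2, so nearly all expression assigned to the common locus was assigned to LHY.

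TOC1 (Sobic.004G216700, chromosome 4, 56625892 to 56628817) encodes a pseudo-response regulator that represses LHY in Arabidopsis. Its values in the authors' deposited table were 15.3 FPKM in elevated CO2 and 15.8 FPKM in ambient CO2. On the deposited scale it had the ratio closest to 1 of the 4 tested clock genes, at 0.969 (log2 -0.05, p = 0.853 and q = 0.980 in the authors' deposited table). An absolute log2 ratio at least as large was found in 88.8% of all tested genes. Centred on the median of all tested genes, its log2 ratio was -0.02. It turns to 0.13 if both groups are scaled to the same summed FPKM, so TOC1 has no settled direction. With the same summed FPKM LHY, at -0.10, is the closest to no difference.

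GI (Sobic.003G040900, chromosome 3, 3821972 to 3830666) encodes GIGANTEA, a large plant protein that in Arabidopsis links the clock to flowering time and to the breakdown of TOC1. It was the most abundant clock transcript, with 389 FPKM in elevated CO2 and 370 FPKM in ambient CO2 in the authors' deposited table. Its rank among all genes was 161 in elevated CO2 and 225 in ambient CO2, within the top 0.472% and 0.659% of the table. On the deposited scale GI was the tested clock gene with the higher value in elevated CO2, at 1.05 times the ambient level (log2 0.07). The difference did not pass the authors' test (p = 0.841, q = 0.976 in the authors' deposited table), and 82.0% of tested genes had an absolute log2 ratio at least as large.

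ELF3 (Sobic.009G257300, chromosome 9, 59155165 to 59160131) encodes a scaffold of the evening complex, a repressor assembly of the Arabidopsis clock. The authors' deposited table gives it 12.3 FPKM in elevated CO2 and 16.4 FPKM in ambient CO2. As a ratio, though not in FPKM, this was the widest difference among the 4 tested clock genes, with the elevated level at 0.749 times the ambient one (log2 -0.42). It did not pass either, with p = 0.0925 and q = 0.365 in the authors' deposited table. Of all tested genes 25.3% had a p as low or lower, and 31.8% had an absolute log2 ratio at least as large. With both groups scaled to the same summed FPKM the log2 ratio of ELF3 was -0.25, and its direction was kept.

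PRR37 (Sobic.006G057866, chromosome 6, 40304882 to 40316799) encodes a pseudo-response regulator and is the sorghum maturity gene Ma1. It is listed at 0.0119 FPKM in elevated CO2 and 0.0111 FPKM in ambient CO2 in the authors' deposited table, at ranks 25560 and 25776. The authors did not test it, and no tested gene was below 2.03 FPKM in its higher group. At such a level the log2 ratio of 0.10 rests on almost no signal, and with a pseudocount of 1 FPKM it is 0.0011. PRR37 stood apart from the other clock genes by its level, near 0 in both groups.

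**Figure D2:**
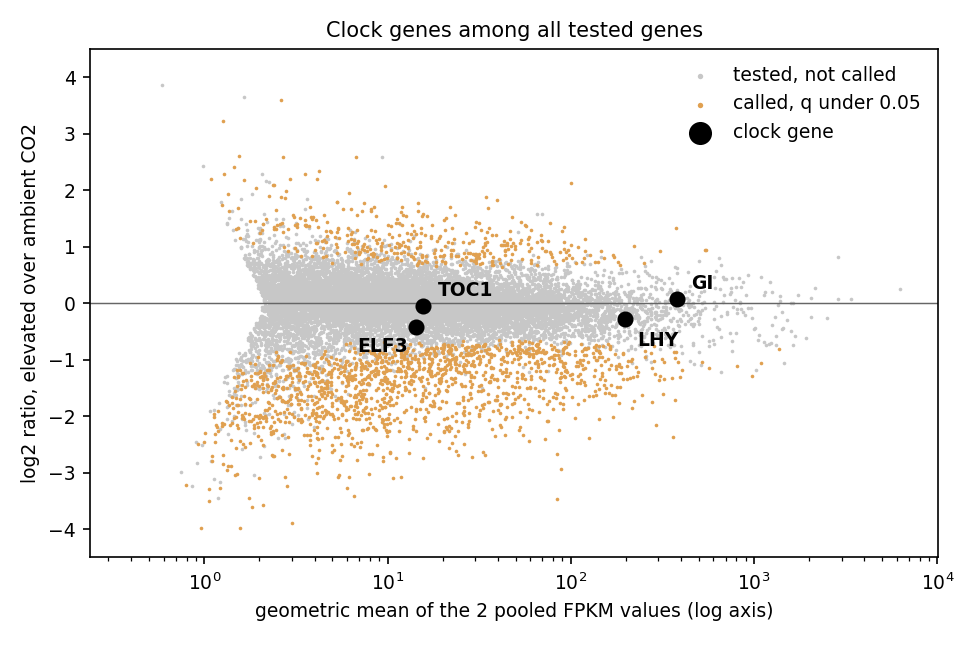
Log2 ratio of elevated over ambient CO2 against the geometric mean of the pooled FPKM values (log axis) for tested genes with a defined ratio, called genes in orange, other tested genes in grey and the 4 tested clock genes in black; 6 genes beyond 4.5 on the log2 scale are outside the plot. GI at 0.07, TOC1 at -0.05, LHY at -0.27 and ELF3 at -0.42 all lie within the grey band.

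How small a change the authors' test picked up can be read from the genes with like levels. Among genes that reached 100 FPKM in either group, the class of GI and LHY, 268 of 1320 tested genes were called, and the smallest called absolute log2 ratio was 0.68 (1.60-fold). Between 5 and 20 FPKM, the class of TOC1 and ELF3, 691 of 6750 were called, and the smallest called absolute log2 ratio was also 0.68 (1.61-fold). All 4 tested clock genes were below these sizes. Over the whole table, 0 of the 11099 tested genes with an absolute log2 ratio no larger than that of ELF3 were called. From 0.5 to 0.75 on that scale 8.47% of the genes in the higher class and 2.27% in the lower class were called, and from 1 to 1.5 the shares were 92.4% and 76.7%. How the authors' test set this limit cannot be checked from pooled values.

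**Figure D3:**
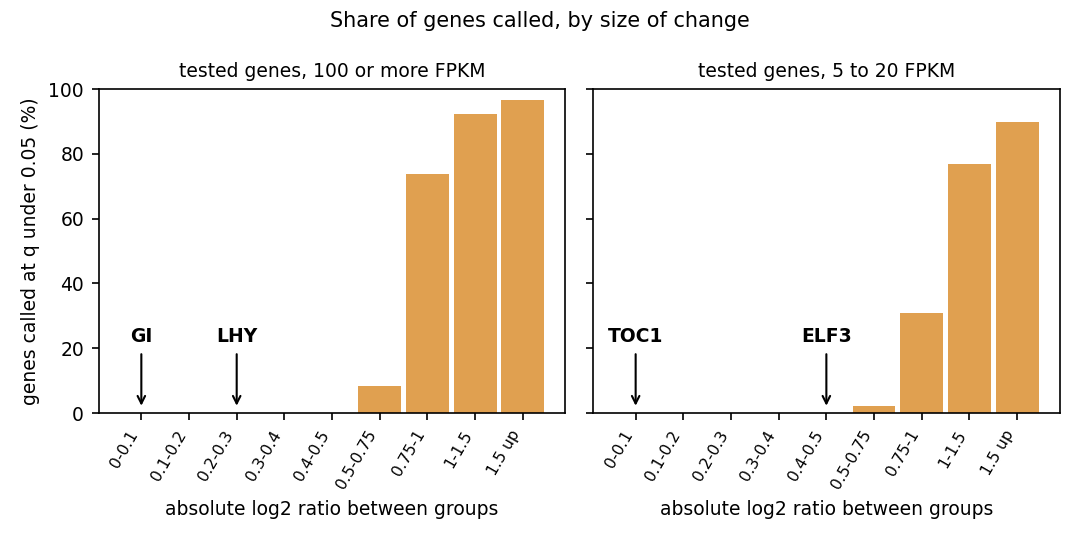
Percent of tested genes called at q under 0.05, by bins of the absolute log2 ratio, for genes whose higher value was at least 100 FPKM (left) or 5 to 20 FPKM (right); arrows mark the bins of the clock genes. No gene is called in any bin below 0.5, where GI, LHY, TOC1 and ELF3 lie, and 92.4% (left) and 76.7% (right) are called from 1 to 1.5.

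The balance between morning and evening genes can be put as ratios of FPKM. LHY stood at 11.7 times TOC1 in elevated CO2 and 13.7 times in ambient CO2. Against GI, LHY was at 0.463 in elevated CO2 and 0.589 in ambient CO2. Against ELF3 it was at 14.6 in elevated CO2 and 13.2 in ambient CO2. The ratio of LHY was thus lower in elevated CO2 against TOC1 and GI, and higher against ELF3. Over the 6 pairs of tested clock genes, the ratio of a pair differed between groups by 0.12 to 0.49 on the log2 scale, the widest being GI over ELF3, with 31.6 in elevated and 22.5 in ambient CO2. Scaling the groups differently cannot alter how these ratios compare between groups, but with pooled values they have no error and no test. Such ratios also vary with the hour of the day. Since the hour of harvest is not given, a difference in hour between the groups cannot be told apart from CO2 here. The tissue was bulk prop root, in which fewer cells of a type and less RNA per cell cannot be told apart.

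The genes most like each clock gene were sought as those with the shortest distance in log2 FPKM over the 2 pooled values, which matches level and ratio but no time course. The nearest to LHY were Sobic.002G362900 (distance 0.0245, with 183 FPKM in elevated and 219 FPKM in ambient CO2) and Sobic.001G291200 (distance 0.0414). For TOC1 they were Sobic.009G081500 (distance 0.0125) and Sobic.001G479200 (distance 0.0135). Closest to GI were Sobic.001G350501 (distance 0.0303, with 393 FPKM in elevated and 376 FPKM in ambient CO2) and Sobic.002G007100 (distance 0.0508). Those nearest to ELF3 were Sobic.005G092000 (distance 0.0212) and Sobic.003G393300 (distance 0.0263). How crowded the surroundings were differed: 139 genes lay within 0.1 of TOC1 and 25 within that distance of ELF3, but 9 of LHY and 8 of GI. None of the 8 nearest genes was called. They were matched in level and ratio to clock genes that were not called, so this follows from the choice and adds no result. They have no name in the sources used here.

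The clock genes lie on 5 different chromosomes, and the 3 annotated genes on either side of each were examined. Of these 30 neighbours 17 were tested. At q under 0.05, 4 of the 17 were called lower in elevated CO2 and 0 were called higher. Over all tested genes 9.04% were called lower and 2.42% were called higher. The log2 ratios of the 17 ran from -2.02 to 0.53, so uncalled neighbours were higher as well as lower. The largest fall among these 4 was that of Sobic.007G047200, which is 32470 bp before LHY, at 1.16 FPKM in elevated CO2 and 4.69 FPKM in ambient CO2 (log2 -2.02, q = 0.00112 in the authors' deposited table). Near GI, Sobic.003G040600 fell to 5.83 FPKM in elevated CO2, against 13.3 FPKM in ambient CO2 (log2 -1.19, q = 0.0057 in the authors' deposited table). The remaining 2 that were called lower flank TOC1, with log2 ratios of -1.02 (q = 0.0272) and -0.91 (q = 0.0498) in the authors' deposited table. By contrast the adjoining gene before LHY was listed at 459 FPKM in elevated and 318 FPKM in ambient CO2, which did not pass (log2 0.53, q = 0.377 in the authors' deposited table). Near PRR37 and near ELF3 0 of 3 tested neighbours each were called. Genes near PRR37 ranged from 0 to 80.2 FPKM in elevated and from 0 to 76.4 FPKM in ambient CO2. The highest of them lies 115772 bp after PRR37. The adjoining gene before PRR37, 24605 bp away, was at 0 FPKM in both groups. The one after PRR37, 110035 bp away, was at 0.352 FPKM in elevated and 0.197 FPKM in ambient CO2, low but above PRR37 itself. The next gene further before PRR37 was at 13.1 FPKM in elevated and 16.6 FPKM in ambient CO2, so the genes around PRR37 were not all low. Neighbours called here and clock genes not called do not show that the responses differ, since the difference between genes was not tested.

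**Figure D4:**
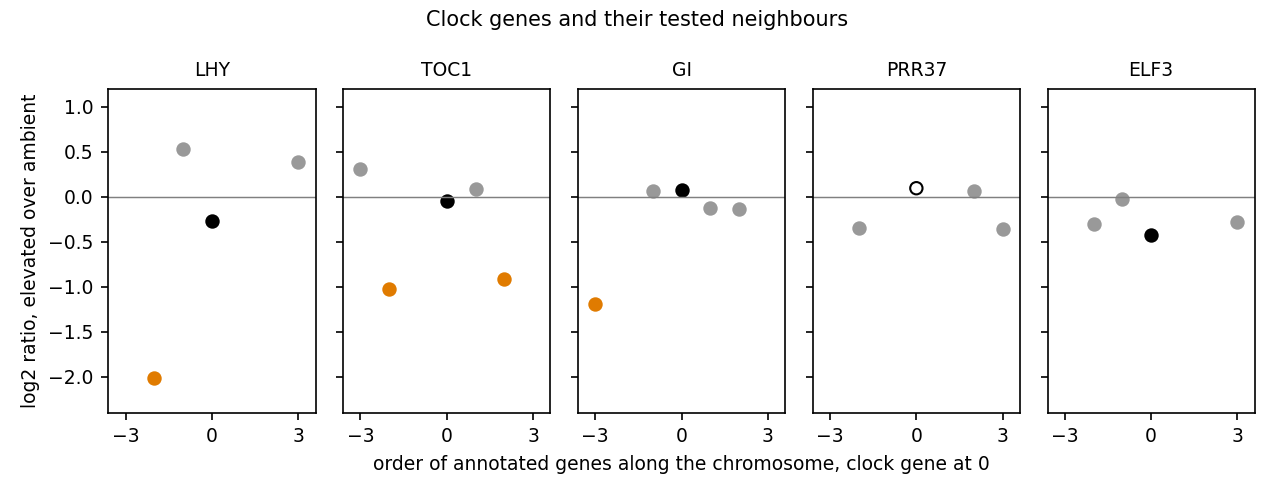
Log2 ratio of elevated over ambient CO2 for each clock gene (black, at 0; open where not tested) and the tested ones among the 3 annotated genes on either side, in order along the chromosome, with called genes in orange and others in grey. The 4 called neighbours, at -2.02, -1.02, -0.91 and -1.19, lie near LHY, TOC1 and GI.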

How the data were processed

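Libraries were made from 100 mg of ground tissue with a stranded Illumina mRNA kit, per the labels' protocols. Trimmomatic 0.36, HISAT2, Cufflinks 2.2.1 and Cuffdiff are named without settings, per the submitters' processing notes. The identifiers end in 3.2, taken here as the annotation version, and nothing in the sources used here says how libraries were normalized. Per the file headers, the authors deposited FPKM values pooled per group. The log2 ratio, the test statistic (a score), the p-value and the q-value of each gene were also computed and deposited by the authors. Deposited log2 ratios differed from those of the FPKM values by at most 2.71e-05, and deposited q-values from Benjamini-Hochberg values recomputed over all tested genes by at most 5.25e-07.

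The members and lists were chosen with earlier results of these data known. Named genes were the 5 members, 3 annotated genes on either side of each and the 2 tested genes nearest to each tested member in log2 FPKM; of the neighbours, identifiers are printed for the 2 called ones with the largest falls and the gene in the LHY locus. Level classes were bounded at 5, 20 and 100 FPKM in the higher group. A list of further clock and photoperiod genes by name has no result, since 0 of 32945 RefSeq genes at hand (assembly Sorghum_bicolor_NCBIv3) matched the identifiers. Calculations used Python 3.11.15, pandas 2.3.3 and scipy 1.17.1. Of these calculations, the Benjamini-Hochberg adjustment was tested on simulated p-values. Alternatives were pseudocounts, q thresholds, filters on low values, scaling and a normal p from the deposited statistic.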

Additional observations from a re-analysis of the deposited data

How the results depend on the processing

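The number of clock genes called stayed at 0 with q under 0.1 and with q over genes of at least 5 FPKM, the alternatives that could have added a call. Pseudocounts of 0.1 and 1 FPKM and a minimum of 1 FPKM leave q as it is, and q under 0.01 or an absolute log2 ratio of at least 1 can only remove calls, so they test nothing about this 0. A normal p from the deposited statistic called 0 of 16277 genes (223 with an unadjusted p under 0.05), against 1865 in the deposited table, so it says nothing about stability; the cause of the gap was not tested. Scaling both groups to the same summed FPKM adds 0.17 to every log2 ratio. It turned TOC1, and with it the median of the 5 clock genes, to 0.13, and kept the direction of LHY (-0.10), GI (0.25) and ELF3 (-0.25). Centring on the median of all tested genes adds 0.03 instead. That kept the direction of all 5 clock genes, with TOC1 and the median of the 5 at -0.02. The median of the 5 as deposited became 0.014 without LHY or without ELF3, and -0.16 without GI or without PRR37, so it has no settled sign. On the log2 scale LHY over PRR37 was 13.88 in elevated and 14.25 in ambient CO2, and it was 10.65 and 10.93 with a pseudocount of 0.1 FPKM and 7.48 and 7.76 with 1 FPKM, since PRR37 is near 0. LHY over ELF3 in elevated CO2 was 3.77 with 1 FPKM added, against 3.87. No paired analysis was possible because each group has a single pooled value, so no library could be left out or blocked. The limits set by read depth could not be judged, as depth is unknown.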
